A study of Arabidopsis thaliana with 18 samples.

Results

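The shoots of Arabidopsis plants colonized by the root endophyte Serendipita indica (Si) were compared between 28°C and 25°C, the upper step of warming in this experiment. The comparison rests on 6 of 18 samples, 3 Si samples at 28°C and 3 Si samples at 25°C, and on the 20044 of 33039 genes that reached 1 TPM (a level per transcript length, scaled so that every sample has the same total) in at least 3 of the 18 samples. All plants were wild-type Col-0, 9 days old when they were moved to PNM plates and inoculated, and their aboveground parts were harvested 7 days post inoculation (dpi) from a photoperiod of 12 h. The other groups were control plants (CK) at 28, 25, and 22°C and Si plants at 22°C, with 3 biological replicates each. The labels do not say how many seedlings or plates made up a replicate, so p-values measure the spread between these samples. The TPM scale holds no read depth, so the precision that counting alone would give to a value is unknown. In whole shoots, more RNA per cell and more cells of one type cannot be told apart.

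S. indica grows in the epidermis and cortex of roots, so that the shoots of colonized plants report a systemic response. Warmth below heat stress is read in Arabidopsis by the photoreceptor phytochrome B and by ELF3 of the evening complex, both of which restrain the transcription factor PIF4, and it promotes elongation of stems and petioles. In the same plants warmth is known to alter immune signalling, chaperone demand, and nutrient uptake, and root endophytes are known for effects on nitrate and phosphate supply.

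The tissue label was checked first against marker genes. All 8 leaf markers passed the filter, and their summed level was 25500 to 26900 TPM in the 3 samples at 28°C, against 32100 to 33000 TPM at 25°C. Of 10 root markers 2 passed the filter, with a summed level of 2.16 to 2.46 TPM at 28°C, against 1.56 to 2.62 TPM at 25°C, and CASP2 was listed at 0 in all 6 samples. The 3 floral organ markers, of which 1 passed, summed to 13.7 to 18.7 TPM at 28°C, against 8.69 to 14.6 TPM at 25°C. The samples were thus leaf tissue with root markers close to 0. Within a temperature the 6 pairs of replicates correlated at 0.976 to 0.982 across genes on the log2 scale, and the 9 pairs between temperatures at 0.961 to 0.976, where genes are not independent replicates.

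Differentially expressed genes (DEGs) were called with limma on log2(TPM + 1). A DEG had a Benjamini-Hochberg adjusted p no higher than 0.05 and a log2 fold change beyond 1 in either direction. Every fold change below is on this scale, on which genes near 1 TPM appear to change less than they do. A value after ± is the SE from limma. In Si shoots 282 genes were upregulated and 42 downregulated at 28°C, which is 1.41% and 0.21% of the genes tested. On the adjusted p alone, 3176 genes (15.8%) were higher and 1056 (5.27%) lower. The 3 values at 28°C all lay above the 3 values at 25°C for 32.5% of all genes and all below them for 9.27%, and 315 of the 324 DEGs were separated in one of these ways. The DEGs that rose had a median level of 9.90 TPM at 28°C, against 3.2 TPM at 25°C, and those that fell 5.97 TPM at 28°C, against 20.1 TPM at 25°C. The median log2 fold change over all genes was 0.11, so that most genes read slightly higher at 28°C, and changes are best read relative to it. With median-of-ratios scaling this shift was 0.00, and 189 genes rose and 45 fell. On the adjusted p alone, this scaling turned the balance to 1313 genes higher (6.55%) and 1838 lower (9.17%), and the counts given with it below are to be read against these shares. With quantile normalization 180 rose and 58 fell, so that the share of upregulated DEGs was 75.6%, against 87.0% with TPM as deposited, and on the adjusted p alone more genes were lower (1996, 9.96%) than higher (1510, 7.53%). Of the 282 upregulated and 42 downregulated DEGs, 158 and 22 were called with each of the 6 samples left out in turn. Among the 282, Si 25°C replicate 1 had the lowest of its 3 values for 167 genes, and Si 28°C replicate 3 had the highest of its 3 values for 135 genes. In 10 DEGs every sample of one temperature was listed at 0, so that no fold is given, among them the small nucleolar RNA gene SNOR37-2 with 0, 0, and 0 TPM at 28°C, against 76.1, 38.2, and 22.9 TPM at 25°C. The plot of change against level shows that upregulated DEGs ranged from low TPM to the highly expressed GASA1 and AZI1.

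**Figure D1:**
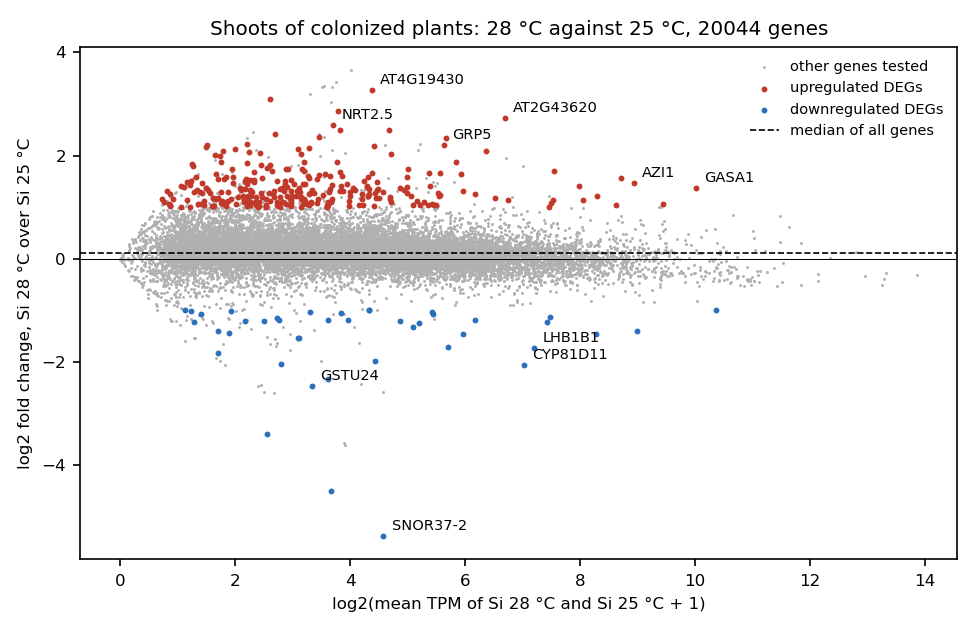
Log2 fold change of Si 28°C over Si 25°C (y axis, limma on log2(TPM + 1)) against the log2 of the mean TPM of both groups + 1 (x axis) for 20044 genes. The 282 upregulated DEGs (red) outnumber the 42 downregulated DEGs (blue), and the dashed line marks the median of all genes at 0.11.

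The largest rises combined genes of defense, of nitrate transport, and of no annotated function. AT4G19430, which the annotation describes only as an uncharacterized protein, had 40.5, 36.7, and 32.6 TPM at 28°C, against 3.24, 3.5, and 2.11 TPM at 25°C (log2 fold change 3.26 ± 0.27, adjusted p = 5.8e-06). AT1G80130, a tetratricopeptide repeat protein, had 27.9, 16.6, and 25.8 TPM at 28°C, against 2.24, 2.96, and 1.8 TPM at 25°C (log2 fold change 2.86 ± 0.19, adjusted p = 1.54e-06). AT2G43620 (chromosome 2, 18093694 to 18095093, minus strand), of the chitinase family whose members cleave the chitin of fungal walls, had 215, 162, and 154 TPM at 28°C, against 17.9, 38.6, and 24.5 TPM at 25°C (log2 fold change 2.72 ± 0.38, adjusted p = 0.000252). In each of these genes the gap between the temperatures was wide, where a lack of overlap was a condition of the ranking. NRT2.5 encodes a high-affinity nitrate transporter known from nitrogen-starved plants. The gene lies on chromosome 1 from 4416315 to 4418590 on the plus strand (TAIR10.1). It had 24.3, 19.2, and 20.5 TPM at 28°C, against 2.73, 2.69, and 2.7 TPM at 25°C (log2 fold change 2.58 ± 0.15, adjusted p = 3.43e-07), and both groups were tight. AT4G30170, a class III peroxidase, had 22.8, 14.1, and 15.5 TPM at 28°C, against 2.59, 2.31, and 2.69 TPM at 25°C (log2 fold change 2.36 ± 0.22, adjusted p = 1.59e-05). AT4G23680, of the polyketide cyclase family, had 83.3, 89.5, and 78.1 TPM at 28°C, against 14.3, 16.1, and 17 TPM at 25°C (log2 fold change 2.33 ± 0.18, adjusted p = 4.46e-06). The cell wall gene GRP5, a glycine-rich protein, had 79.4, 81.2, and 79.3 TPM at 28°C, against 12, 19.7, and 19.5 TPM at 25°C (log2 fold change 2.2 ± 0.23, adjusted p = 2.33e-05). For these genes the spread within a temperature was smaller than the gap between temperatures.

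Among the other large rises, AT1G65490 had 39.1, 45.6, and 42.7 TPM at 28°C, against 6.71, 7.34, and 6.18 TPM at 25°C (log2 fold change 2.49 ± 0.24, adjusted p = 2e-05). It is an uncharacterized gene on chromosome 1 whose neighbours AT1G65484, AT1G65486, and AT1G65500, named here after their values were seen, were upregulated DEGs too, with log2 fold changes of 1.44, 2.08, and 2.18. AT2G30766 (IMA3), a listed gene of iron homeostasis, had 10.5, 6.98, and 12.4 TPM at 28°C, against 1.18, 1.39, and 0.54 TPM at 25°C (log2 fold change 2.42 ± 0.22, adjusted p = 1.17e-05). It overlaps the camalexin gene CYP71A13 on the opposite strand, from which its reads cannot be told apart without strand. The non-coding RNA AT4G39838 had 9.62, 4.72, and 4.9 TPM at 28°C, against 2.53, 0, and 0 TPM at 25°C (log2 fold change 2.22 ± 0.70, adjusted p = 0.0351), and this call was lost in most leave-outs (adjusted p = 0.0602 to 0.117 without Si 25°C replicate 2 or 3 or Si 28°C replicate 1, 2, or 3) and with median-of-ratios scaling (adjusted p = 0.067).

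**Figure D2:**
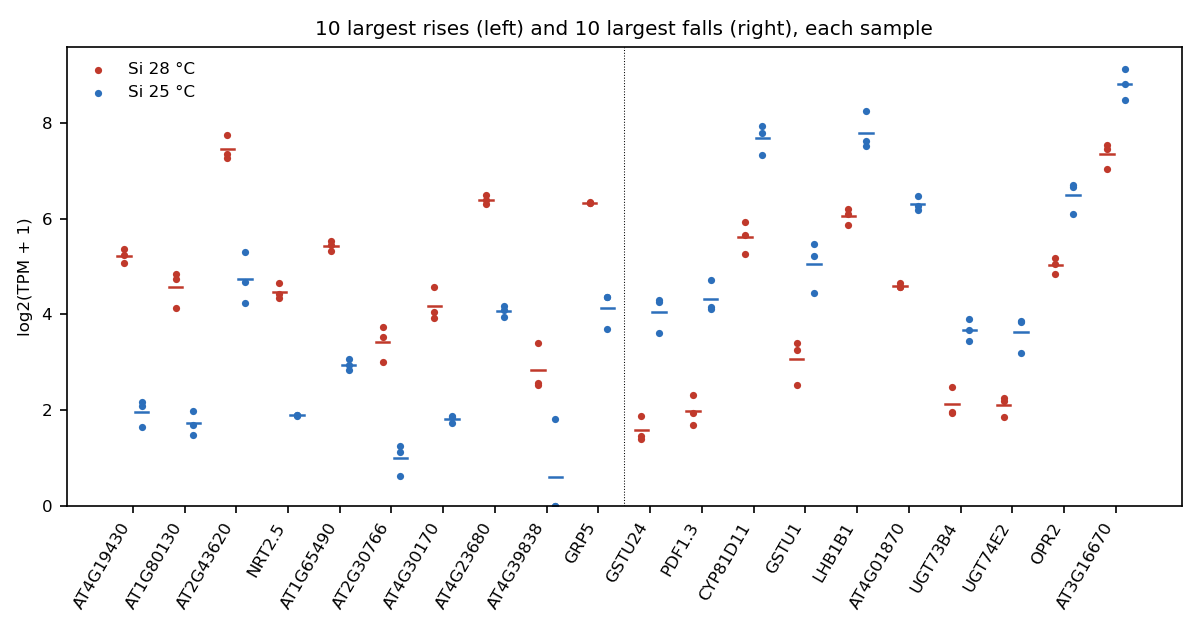
Level of the 10 largest rises (left of the dotted line) and 10 largest falls (right), as log2(TPM + 1) in each of 3 Si samples at 28°C (red) and 3 at 25°C (blue), with horizontal bars at the group means. The 20 genes were chosen among DEGs without overlap between the groups, and AT4G39838 is listed at 0 in 2 samples at 25°C.

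The largest falls were led by genes of chemical detoxification. Glutathione S-transferases join glutathione to reactive compounds, UDP-glycosyltransferases (UGTs) add sugars to them, and both are known as targets of oxylipin and xenobiotic signalling together with CYP81D11 and the OPR reductases. GSTU24 had 2.65, 1.63, and 1.76 TPM at 28°C, against 18.9, 18.17, and 11.2 TPM at 25°C (log2 fold change -2.48 ± 0.17, adjusted p = 1.54e-06). GSTU1 had 8.57, 4.79, and 9.62 TPM at 28°C, against 43.6, 36.5, and 20.7 TPM at 25°C (log2 fold change -1.98 ± 0.31, adjusted p = 0.00061). The cytochrome P450 gene CYP81D11 had 60.5, 37.6, and 49.4 TPM at 28°C, against 245, 223, and 160.3 TPM at 25°C (log2 fold change -2.07 ± 0.27, adjusted p = 0.000143). UGT73B4 and UGT74E2, which is known to glycosylate the auxin indole-3-butyric acid, fell with log2 fold changes of -1.55 ± 0.21 and -1.54 ± 0.29 (adjusted p = 0.000211 and 0.00222). OPR2, a 12-oxophytodienoate reductase, had 35.2, 32.2, and 27.8 TPM at 28°C, against 100.3, 104, and 67.5 TPM at 25°C (log2 fold change -1.46 ± 0.34, adjusted p = 0.00768). It overlaps its close copy OPR1, which fell too (log2 fold change -1.24 ± 0.19), and UGT73B4 likewise overlaps UGT73B5 on the same strand, so how reads were shared within these pairs is uncertain. AT4G01870, a tolB-like protein, had 22.7, 22.8, and 24.4 TPM at 28°C, against 76.3, 88.5, and 71.7 TPM at 25°C (log2 fold change -1.71 ± 0.13, adjusted p = 4.46e-06). AT3G16670, of the Ole e 1 allergen and extensin family, had 175, 187, and 131 TPM at 28°C, against 562, 358, and 450.4 TPM at 25°C (log2 fold change -1.46 ± 0.20, adjusted p = 0.000223).

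The families of these genes, taken by symbol after their values were seen, moved in part. Of 27 tau-class glutathione S-transferases 20 passed the filter, of which 4 were lower and 2 higher on the adjusted p, where 5.27% and 15.8% of all genes were. Of those higher, GSTU11 was a DEG (log2 fold change 1.56 ± 0.51), but not without Si 25°C replicate 1 or 2 or Si 28°C replicate 1 or 3 (adjusted p = 0.0589 to 0.186). With median-of-ratios scaling 5 were lower and 0 higher, and the family median turned from 0.08 to -0.04. Of 58 genes with a UGT symbol 42 passed the filter, with 11 lower and 3 higher, and 3 of those lower were DEGs.

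Genes of defense rose in several lists and families. Salicylic acid, made by isochorismate synthase, and N-hydroxypipecolic acid, made by FMO1, carry systemic immunity, and receptor kinases such as FRK1 are induced when microbial patterns are perceived. Of 30 genes listed for salicylic acid and systemic immunity 25 passed the filter. On the adjusted p 9 were higher (36.0%, where 15.8% of all genes were) and 0 lower, and 3 were DEGs, where 1.41% of all genes were. The median log2 fold change was 0.51, against 0.11 over all genes, and 5 were higher with median-of-ratios scaling. FRK1 had 24.9, 17.1, and 22.3 TPM at 28°C, against 4.55, 10.6, and 7.46 TPM at 25°C (log2 fold change 1.44 ± 0.32, adjusted p = 0.00548). FMO1 had 4.03, 2.11, and 2.02 TPM at 28°C, against 0.18, 0.86, and 0.48 TPM at 25°C (log2 fold change 1.29 ± 0.20, adjusted p = 0.000503). AT5G10760 (AED1), an aspartyl protease of the apoplast, had 16.8, 12, and 11.1 TPM at 28°C, against 2.26, 5.91, and 3.49 TPM at 25°C (log2 fold change 1.6 ± 0.32, adjusted p = 0.00278). In all 3 genes the 28°C samples lay above the 25°C samples, and Si 25°C replicate 1 was the lowest. The isochorismate synthase gene EDS16 (ICS1) had 15, 13, and 16.1 TPM at 28°C, against 8.15, 10.4, and 7.25 TPM at 25°C (log2 fold change 0.72 ± 0.14, adjusted p = 0.00296), which is under the threshold on the fold change.

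Of the 15 rapid stress-responsive genes, which respond within minutes to touch, wounding, or elicitors, 3 were higher and 0 lower, and the median was 0.68. This share, 20.0%, is close to the 15.8% of all genes that were higher. WRKY53, a transcription factor of senescence and defense, had 22.3, 29, and 29.8 TPM at 28°C, against 7.21, 9.6, and 9.97 TPM at 25°C (log2 fold change 1.5 ± 0.34, adjusted p = 0.00578). WRKY46 had 8.44, 7.35, and 7.27 TPM at 28°C, against 1.24, 5.24, and 2.42 TPM at 25°C (log2 fold change 1.26 ± 0.31, adjusted p = 0.0104), and its call was lost without 1 library (adjusted p = 0.0528 without Si 25°C replicate 1). RHL41 (ZAT12), a zinc finger protein, had 20.1, 17.5, and 42.9 TPM at 28°C, against 5.92, 15.9, and 11 TPM at 25°C (log2 fold change 1.21 ± 0.39, adjusted p = 0.0383), where Si 28°C replicate 3 stood highest. Its call was lost without any of 4 libraries (adjusted p = 0.0517 to 0.179 without Si 25°C replicate 1 or 3 or Si 28°C replicate 1 or 3) and with median-of-ratios scaling (adjusted p = 0.0686). Among 50 of 67 WRKY genes that passed the filter 14 were higher (28.0%, where 15.8% of all genes were) and 0 lower. With median-of-ratios scaling 9 were higher and with quantile normalization 8, where 6.55% and 7.53% of all genes were. Of 38 cysteine-rich receptor-like kinases, membrane proteins of defense, 28 passed, 24 of which lie on chromosome 4, in part in tandem. Of these 28, 17 were higher, 1 was lower, and 10 were upregulated DEGs. CRK6, CRK5, CRK14, and CRK15 led with log2 fold changes of 1.73, 1.63, 1.46, and 1.39. With median-of-ratios scaling 13 were higher, and the tandem copies are similar enough that reads may be shared between them. Of 27 berberine bridge enzyme-like oxidases 17 passed and 7 were higher (41.2%), 3 of them DEGs. With median-of-ratios scaling 3 were higher, and with quantile normalization 4. These families, and the next genes, were named after their values were seen. AZI1 and EARLI1, lipid transfer proteins of systemic immunity, had log2 fold changes of 1.47 ± 0.18 and 1.69 ± 0.29, and AZI1 had 928, 631, and 599 TPM at 28°C, against 216, 311, and 243 TPM at 25°C. The malectin-like receptor kinase IOS1 had 25, 17.9, and 18.9 TPM at 28°C, against 4.81, 6.79, and 5.49 TPM at 25°C (log2 fold change 1.68 ± 0.29, adjusted p = 0.000986). The lipase gene GLIP1 had 11.6, 13, and 15 TPM at 28°C, against 2.94, 2.49, and 2.0 TPM at 25°C (log2 fold change 2.03 ± 0.17, adjusted p = 5.8e-06), and the wall protein extensin EXT3 had 395, 272, and 435 TPM at 28°C, against 124, 143, and 137 TPM at 25°C (log2 fold change 1.42 ± 0.21, adjusted p = 0.000338).

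Camalexin, the indole phytoalexin of Arabidopsis, and the glucosinolates share the enzymes CYP79B2 and CYP79B3. All 24 genes of this list passed the filter, and 8 were higher (33.3%, where 15.8% of all genes were) and 0 lower. With median-of-ratios scaling 8 were higher, where 6.55% of all genes were. The list median was 0.23 in Si and 0.53 in CK, and the difference between Si and CK passed as positive for 1 gene and negative for 2. PAD3, which completes camalexin, had 21.1, 21.7, and 25.6 TPM at 28°C, against 6.43, 9.2, and 9.02 TPM at 25°C (log2 fold change 1.38 ± 0.31, adjusted p = 0.00565). The regulator MYB51, CYP71A13, and CYP79B2 passed the adjusted p with log2 fold changes of 0.79, 0.84, and 0.78. The call of CYP71A13 was lost in 3 leave-outs (adjusted p = 0.0521 to 0.0709 without Si 25°C replicate 1 or Si 28°C replicate 1 or 3) and that of CYP79B2 in 2 (adjusted p = 0.0773 to 0.0821 without Si 25°C replicate 1 or Si 28°C replicate 3).

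WRKY factors bind the W-box, searched here as TTGACC or TTGACT on both strands in the 250 bases before each gene's annotated start (TAIR10.1, RefSeq). It was present in 134 of 265 upregulated DEGs with a readable upstream region (50.6%), in 20 of 41 downregulated DEGs (48.8%), and in 28.0% of the 19760 regions read. Among the 119 upregulated DEGs whose rise was larger in Si than in CK the share was 61.3%. TGACG, the core bound by TGA factors, was in 26.8% of upregulated and 29.3% of downregulated DEGs, against 19.4% of all, and CACGTG, a G-box, in 7.92%, 4.88%, and 7.00%. The evening element AAAATATCT was in 3.4% of upregulated DEGs, 7.32% of downregulated DEGs, and 2.52% of all. These are matches of letters only, and no test was made. The regions of 2 receptor kinases of pattern perception are shown because both genes rose in Si and read lower in CK, with W-boxes in capitals, FRK1 from chr2:8329945-8330194 on the minus strand and IOS1 from chr1:19213822-19214071 on the plus strand, each ending at the base before the start.
FRK1: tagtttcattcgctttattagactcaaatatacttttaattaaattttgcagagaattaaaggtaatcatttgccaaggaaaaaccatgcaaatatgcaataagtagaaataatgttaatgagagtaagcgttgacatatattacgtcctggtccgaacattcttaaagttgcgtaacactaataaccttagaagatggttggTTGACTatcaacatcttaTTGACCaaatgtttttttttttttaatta
IOS1: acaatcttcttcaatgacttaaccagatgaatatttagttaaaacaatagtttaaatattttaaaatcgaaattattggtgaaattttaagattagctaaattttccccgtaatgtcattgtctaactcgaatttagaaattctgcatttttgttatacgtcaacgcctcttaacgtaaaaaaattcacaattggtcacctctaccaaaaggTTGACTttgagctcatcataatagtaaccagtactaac
The same stretches are given for 2 genes of detoxification that fell, with TGACG in capitals, GSTU24 from chr1:5869293-5869542 on the plus strand and CYP81D11 from chr3:10790554-10790803 on the minus strand.
GSTU24: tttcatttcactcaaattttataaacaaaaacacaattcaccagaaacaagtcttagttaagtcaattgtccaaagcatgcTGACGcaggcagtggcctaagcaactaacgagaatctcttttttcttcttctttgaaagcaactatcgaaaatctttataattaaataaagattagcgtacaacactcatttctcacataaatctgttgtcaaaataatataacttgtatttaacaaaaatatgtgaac
CYP81D11: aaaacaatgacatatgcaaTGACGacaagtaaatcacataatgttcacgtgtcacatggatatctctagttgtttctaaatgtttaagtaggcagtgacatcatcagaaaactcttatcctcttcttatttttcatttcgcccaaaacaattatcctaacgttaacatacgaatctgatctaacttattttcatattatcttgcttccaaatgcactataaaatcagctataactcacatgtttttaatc

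Many chaperone genes rose. Small heat shock proteins hold unfolding proteins, and HSF factors drive them through heat shock elements. Of 37 heat shock genes 31 passed the filter, of which 14 were higher (45.2%), 1 lower (3.23%), and 6 upregulated DEGs, with a median of 0.51. Of all genes 15.8% were higher, 5.27% lower, and 1.41% upregulated DEGs. With median-of-ratios scaling 11 heat shock genes were higher. HSP17.4 had 3.99, 7.74, and 8.16 TPM at 28°C, against 0.46, 1.59, and 0.45 TPM at 25°C (log2 fold change 2.06 ± 0.31, adjusted p = 0.000448). It overlaps the RNA gene AT3G07365 on the opposite strand, which rose as well (log2 fold change 2.04 ± 0.47), and reads of the pair cannot be told apart without strand. AT5G48570 (ROF2), an FKBP-type co-chaperone, had 19.4, 22.9, and 28 TPM at 28°C, against 10.4, 8.6, and 6.99 TPM at 25°C (log2 fold change 1.34 ± 0.19, adjusted p = 0.000279). AT1G53540, of the HSP20-like family, had 1.94, 3.22, and 4.53 TPM at 28°C, against 0.60, 0.80, and 0.69 TPM at 25°C (log2 fold change 1.27 ± 0.21, adjusted p = 0.000839). HSP17.6A had 5.06, 3.02, and 7.8 TPM at 28°C, against 1.63, 0.82, and 1.73 TPM at 25°C (log2 fold change 1.35 ± 0.38, adjusted p = 0.0207, and adjusted p = 0.0531 to 0.0992 without Si 25°C replicate 2 or Si 28°C replicate 1 or 3). The 28°C samples were above the 25°C samples in each of these genes, at levels of a few TPM for the small heat shock proteins. Of 18 chaperones of the endoplasmic reticulum 17 passed and 8 were higher (47.1%) by small amounts. With median-of-ratios scaling 2 were higher and with quantile normalization 6, where 6.55% and 7.53% of all genes were. The calreticulin CRT3 led in precision with 85.6, 79.3, and 84.3 TPM at 28°C, against 54.4, 55.2, and 55.4 TPM at 25°C (log2 fold change 0.59 ± 0.07, adjusted p = 5.29e-05), and ATERDJ3A, ATERDJ3B, and UNE5, a protein disulfide isomerase, had log2 fold changes of 0.64, 0.38, and 0.32. The calls of ATERDJ3B and UNE5 ended with median-of-ratios scaling (adjusted p = 0.0678 and 0.071), and that of ATERDJ3B in 3 leave-outs (adjusted p = 0.0553 to 0.0644 without Si 25°C replicate 2 or 3 or Si 28°C replicate 3). The heat shock element was searched on both strands as GAA, TTC, and GAA (or TTC, GAA, and TTC), with any 2 bases between neighbouring units. It was in 5 of 265 upregulated DEGs (1.89%), in 0 of 41 downregulated ones, and in 0.42% of all regions. The 2 chaperone DEGs that held it are shown with the element in capitals, HSP17.4 from chr3:16984868-16985117 on the minus strand and AT1G53540 from chr1:19980049-19980298 on the plus strand.
HSP17.4: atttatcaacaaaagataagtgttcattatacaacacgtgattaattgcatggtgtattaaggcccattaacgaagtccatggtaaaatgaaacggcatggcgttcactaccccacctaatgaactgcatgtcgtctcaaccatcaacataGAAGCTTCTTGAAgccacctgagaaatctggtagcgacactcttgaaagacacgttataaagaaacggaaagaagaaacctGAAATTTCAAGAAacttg
AT1G53540: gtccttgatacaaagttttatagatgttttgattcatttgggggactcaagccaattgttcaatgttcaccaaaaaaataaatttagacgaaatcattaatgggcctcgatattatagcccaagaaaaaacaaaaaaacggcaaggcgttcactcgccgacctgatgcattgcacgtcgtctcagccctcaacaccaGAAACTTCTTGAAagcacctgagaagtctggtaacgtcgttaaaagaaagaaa

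Of the listed genes of warm-temperature growth 30.8% were higher, where 15.8% of all genes were, and most did not pass the test. PIF4 was among the genes that rose. PIF4 had 34.9, 41.5, and 42.6 TPM at 28°C, against 25, 22.5, and 24.1 TPM at 25°C (log2 fold change 0.71 ± 0.09, adjusted p = 0.000186). The thermosensor genes did not pass the test, with PHYB at 21.5, 22.3, and 20.9 TPM at 28°C, against 21.1, 22.2, and 21.3 TPM at 25°C (log2 fold change 0.00 ± 0.08, adjusted p = 0.997) and ELF3 at 64.6, 67.7, and 67.9 TPM at 28°C, against 70.0, 74.6, and 68.7 TPM at 25°C (log2 fold change -0.09 ± 0.05, adjusted p = 0.235, and adjusted p = 0.0131 with median-of-ratios scaling). Of 29 genes listed for thermomorphogenesis 26 passed the filter, 8 were higher, and 0 lower, with a median of 0.39, and with median-of-ratios scaling 7 were higher and 1 lower. HFR1, a bHLH protein that dimerizes with PIFs, had 8.52, 9.16, and 9.29 TPM at 28°C, against 3.22, 3.46, and 4.88 TPM at 25°C (log2 fold change 1.06 ± 0.17, adjusted p = 0.000793), which was at the fold threshold (log2 fold change 0.96 without Si 25°C replicate 1, and 0.93 with median-of-ratios scaling). The cytokinin oxidase CKX5, the homeobox gene HB-2, and the B-box gene BBX18 had log2 fold changes of 0.93 ± 0.14, 0.86 ± 0.18, and 0.85 ± 0.22. Of these, the call of BBX18 was lost in leave-outs (adjusted p = 0.0502 to 0.0658 without Si 25°C replicate 1 or Si 28°C replicate 2 or 3). Of 15 auxin response genes of 19 that passed, 4 were higher and 0 lower, namely GH3.3, AXR3 (IAA17), WES1 (GH3.5), and IAA7 at 0.76, 0.70, 0.56, and 0.32. The call of IAA7 was not stable (adjusted p = 0.0538 to 0.0604 without Si 28°C replicate 1 or 2, and 0.2 with median-of-ratios scaling). GH3 enzymes conjugate auxin to amino acids, and Aux/IAA proteins repress the auxin response. Of 20 gibberellin and brassinosteroid genes of 24 that passed, the gibberellin oxidase GA20OX2 and the brassinosteroid gene ROT3 were higher (0.53 and 0.40) and GA3OX1 lower (-0.63). The call of GA20OX2 was lost in 4 leave-outs (adjusted p = 0.0541 to 0.0746 without Si 25°C replicate 1 or 3 or Si 28°C replicate 2 or 3), that of ROT3 in 4 (adjusted p = 0.0688 to 0.133 without Si 25°C replicate 1 or 2 or Si 28°C replicate 2 or 3), and that of GA3OX1 in 3 (adjusted p = 0.0587 to 0.127 without Si 25°C replicate 1 or 2 or Si 28°C replicate 3), and with median-of-ratios scaling 0 genes of this list were higher.

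Clock, flowering, and cold genes passed the test in both directions, where 15.8% of all genes were higher and 5.27% lower. Of clock genes 38.1% were higher and 4.76% lower, and of cold genes 16.7% and 16.7%. Flowering genes, with 9.52% and 4.76%, did not exceed the shares of all genes. Of 21 clock genes of 23 that passed, 8 were higher and 1 lower, but 4 higher and 3 lower with median-of-ratios scaling, where the median also turned from 0.02 to -0.10. AT5G64170 (LNK1) and AT3G54500 (LNK2), coactivators of the clock, had log2 fold changes of 0.91 ± 0.15 and 0.80 ± 0.09, RVE8 0.61 ± 0.14, and the core clock gene CCA1 0.64 ± 0.18. CCA1 had 1.15, 1.23, and 1.15 TPM at 28°C, against 0.62, 0.24, and 0.37 TPM at 25°C, and its call was lost in 5 leave-outs (adjusted p = 0.0547 to 0.0885 without Si 25°C replicate 2 or 3 or Si 28°C replicate 1, 2, or 3). The sampling hour was not given in the sources used here. Of 21 flowering genes of 26 that passed, SVP and AGL31 (MAF2), repressors of flowering, were higher (0.27 and 0.31) and CO, an activator, lower (-0.38). The rises did not pass with median-of-ratios scaling (adjusted p = 0.0919 and 0.0944), and the call of CO was lost in 5 leave-outs (adjusted p = 0.0637 to 0.203 without Si 25°C replicate 1 or 3 or Si 28°C replicate 1, 2, or 3). Of 24 cold-regulated genes 18 passed, with 3 higher and 3 lower. The early light-induced ELIP1 had 4.14, 3.48, and 3.31 TPM at 28°C, against 0.88, 1.26, and 1.27 TPM at 25°C (log2 fold change 1.12 ± 0.17, adjusted p = 0.000492; log2 fold change 0.99 with median-of-ratios scaling), and the dehydrin ERD10 72.2, 71.7, and 83.4 TPM at 28°C, against 40.8, 42.5, and 38.8 TPM at 25°C (log2 fold change 0.88 ± 0.08, adjusted p = 8.66e-06). FAD8, a plastid desaturase whose protein is known to be lost at warm temperature, had 26, 29.8, and 25 TPM at 28°C, against 63.2, 53.7, and 52.6 TPM at 25°C (log2 fold change -1.04 ± 0.08, adjusted p = 4.46e-06), and COR15B, a chloroplast protein of cold acclimation, a log2 fold change of -0.72 ± 0.22 (adjusted p = 0.0578 to 0.109 without Si 25°C replicate 1 or 3 or Si 28°C replicate 1 or 3). FAD8 stood at the fold threshold (log2 fold change -0.96 to -0.99 without Si 25°C replicate 1 or Si 28°C replicate 3).

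Jasmonate genes were higher in 6.9% of members, below the 15.8% of all genes, and ethylene genes at about the shares of all genes. Of 31 jasmonate genes 29 passed the filter, and the biosynthesis gene AOC3 and the storage protein VSP1 were the 2 that rose, while 0 fell and the median was 0.42. AOC3 had 4.42, 5.13, and 7.83 TPM at 28°C, against 0.63, 1.35, and 2.07 TPM at 25°C (log2 fold change 1.55 ± 0.27, adjusted p = 0.00108). VSP1 had 0.95, 3.32, and 3.82 TPM at 28°C, against 0.17, 0.67, and 0.29 TPM at 25°C (log2 fold change 1.34 ± 0.36, adjusted p = 0.0155, and adjusted p = 0.0586 to 0.0759 without Si 25°C replicate 1 or Si 28°C replicate 2 or 3). Of 30 genes of ethylene and the defensins it induces 28 passed, with 5 higher (17.9%) and 2 lower (7.14%). These shares are close to the 15.8% and 5.27% of all genes. ACS7, which makes the ethylene precursor, had 7.91, 6.08, and 11.6 TPM at 28°C, against 0.92, 2.15, and 2.82 TPM at 25°C (log2 fold change 1.7 ± 0.30, adjusted p = 0.00139), and the basic chitinase HCHIB had a log2 fold change of 0.98 ± 0.27 (adjusted p = 0.0702 to 0.0715 without Si 25°C replicate 1 or 2 or Si 28°C replicate 1). The defensins went the other way. PDF1.3 had 2.22, 2.83, and 4.01 TPM at 28°C, against 16.4, 16.8, and 25.2 TPM at 25°C (log2 fold change -2.35 ± 0.49, adjusted p = 0.00356), and PDF1.2b had 7.39, 7.36, and 4.75 TPM at 28°C, against 15.9, 17.83, and 14 TPM at 25°C (log2 fold change -1.19 ± 0.36, adjusted p = 0.0287, and adjusted p = 0.0717 to 0.113 without Si 25°C replicate 1 or 2 or Si 28°C replicate 3). Defensin copies are near identical, so reads may be split between them. Of 9 abscisic acid genes of 13 that passed, the dehydrin AT5G66400 (RAB18) fell, with 17.56, 16.6, and 21.2 TPM at 28°C, against 43.7, 46.5, and 52.3 TPM at 25°C (log2 fold change -1.32 ± 0.10, adjusted p = 4.46e-06), and CYP707A1, which breaks down abscisic acid, was higher (0.67 ± 0.17, adjusted p = 0.0572 to 0.0709 without Si 25°C replicate 1 or Si 28°C replicate 3).

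Nitrogen genes passed the test in both directions. Of 23 listed genes 22 passed the filter, with 6 higher (27.3%) and 6 lower (27.3%). Of all genes 15.8% were higher and 5.27% lower, so that falls exceeded their share by more than rises. The median of the list turned from 0.03 to -0.09 with median-of-ratios scaling. Beside NRT2.5, GLN1;4 and GSR 1, cytosolic glutamine synthetases that recycle ammonium, were the upregulated DEGs of the list. GLN1;4 had 41.6, 27.8, and 36 TPM at 28°C, against 17.76, 14.2, and 12.1 TPM at 25°C (log2 fold change 1.2 ± 0.17, adjusted p = 0.000261). GSR 1 (GLN1;1) had 592, 504, and 489.9 TPM at 28°C, against 254, 275, and 241 TPM at 25°C (log2 fold change 1.04 ± 0.13, adjusted p = 9.54e-05), at the fold threshold (log2 fold change 0.95 to 0.99 without Si 25°C replicate 3 or Si 28°C replicate 1, and 0.92 with median-of-ratios scaling). Nitrate reductase NIA1, the first step of assimilation, had 28.2, 27.5, and 24.9 TPM at 28°C, against 52.4, 69.5, and 52.8 TPM at 25°C (log2 fold change -1.08 ± 0.24, adjusted p = 0.00594, and log2 fold change -0.95 without Si 25°C replicate 2). The values at both temperatures did not overlap in GLN1;4, GSR 1, and NIA1, nor in NRT2.5, for which this was a condition of the ranking. Of 16 iron genes of 20 that passed, 4 were higher (25.0%) and 2 lower (12.5%). The largest rise of the list was that of AT2G30766 (IMA3), given above with its overlap (log2 fold change 2.42 ± 0.22). BHLH100, a factor of iron deficiency, had 1.07, 1.78, and 1.85 TPM at 28°C, against 0.11, 0.05, and 0.06 TPM at 25°C (log2 fold change 1.24 ± 0.19, adjusted p = 0.000446). The ferric reductase FRO3 and the iron sensor BTS had log2 fold changes of 0.49 ± 0.07 and 0.44 ± 0.08. Of 13 phosphate starvation genes of 18 that passed, 7.69% were higher and 15.4% lower. The phosphatase PEPC1 was higher (0.73 ± 0.16), and the sulfolipid genes SQD2 and SQD1 were lower (-0.34 ± 0.09 and -0.22 ± 0.06). The calls of the sulfolipid genes were lost in 2 leave-outs for SQD2 (adjusted p = 0.0751 to 0.0873 without Si 25°C replicate 1 or Si 28°C replicate 2) and in 5 for SQD1 (adjusted p = 0.0522 to 0.0645 without Si 25°C replicate 1 or 3 or Si 28°C replicate 1, 2, or 3). All 26 sugar-starvation genes passed the filter, and ERD5, proline dehydrogenase, was the 1 that passed the test, with 222, 224, and 268 TPM at 28°C, against 139.7, 159, and 150.4 TPM at 25°C (log2 fold change 0.66 ± 0.10, adjusted p = 0.000324).

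Photosynthesis genes passed the test in both directions. All 8 leaf markers were below the median of all genes, and 5 were lower (62.5%) and 0 higher on the adjusted p. Of all genes 5.27% were lower and 15.8% higher. Carbonic anhydrase CA1 had 2256, 2263, and 2246 TPM at 28°C, against 3437, 3184, and 3135 TPM at 25°C (log2 fold change -0.53 ± 0.08, adjusted p = 0.000479). CAB1, GAPA, and the Rubisco small subunit RBCS1A had log2 fold changes of -0.51 ± 0.09, -0.33 ± 0.06, and -0.31 ± 0.06, and the last 2 did not pass after quantile normalization. Of the 25 genes of light harvesting and Rubisco 9 were lower (36.0%) and 8 higher (32.0%), with a median of -0.06. The counts were 10 lower and 4 higher with median-of-ratios scaling, and 4 lower and 7 higher after quantile normalization, where the median was 0.12. LHB1B1 had 72.4, 67.9, and 57.3 TPM at 28°C, against 197, 303, and 182 TPM at 25°C (log2 fold change -1.74 ± 0.19, adjusted p = 3.83e-05). LHCB2.1, LHCB2.2, and CAB2 rose, with log2 fold changes of 0.85 ± 0.17, 0.77 ± 0.14, and 0.71 ± 0.18. Of these, the call of CAB2 was lost in leave-outs (adjusted p = 0.0543 to 0.0644 without Si 25°C replicate 2 or Si 28°C replicate 2). Light-harvesting genes of one subfamily are close copies. LHB1B2, next to LHB1B1, had 2060.4, 2555, and 2149.5 TPM at 28°C, against 2061, 1985, and 1923 TPM at 25°C (log2 fold change 0.17 ± 0.58), at far higher levels, and how reads were split between the copies is uncertain.

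The 2 organelle genomes differed in direction, which was noticed after the values were seen. Of 152 genes of the mitochondrial genome 48 passed the filter, of which 24 were higher and 0 lower, 14 were DEGs, and the median was 0.66, against 18 higher and a median of 0.56 with median-of-ratios scaling. ATMG01090 had 15.3, 12.3, and 17.3 TPM at 28°C, against 4.16, 4.63, and 4.48 TPM at 25°C (log2 fold change 1.55 ± 0.17, adjusted p = 4.03e-05), and ATMG00640 had 7.18, 6.93, and 11.4 TPM at 28°C, against 2.1, 1.95, and 1.04 TPM at 25°C (log2 fold change 1.81 ± 0.24, adjusted p = 0.000173). Summed over the mitochondrial genes the level was 226 to 459 TPM at 28°C, against 119 to 338 TPM at 25°C, so that the sums overlapped. ATMG01380, which was listed at 0 in 1 sample of each temperature, had 74.8, 0, and 164 TPM at 28°C, against 224, 0, and 122 TPM at 25°C. ATMG00170 and ATMG00620 hold equal values in every sample and cannot be told apart. Of 133 plastid genes 63 passed, with 0 higher and 12 lower (19.0%, where 5.27% of all genes were). The sum of the plastid genes was 1250 to 1400 TPM at 28°C, against 1270 to 1780 TPM at 25°C. Among those lower, ATCG00830 and ATCG01310 held equal values, as did ATCG00950 and ATCG01180. Other pairs, such as ATCG00920 and ATCG01210, did so too, so both counts hold copies that cannot be told apart. Organelle transcripts lack the long poly(A) tails of nuclear ones, and how RNA was selected for these libraries is not given in the sources used here. The part of RNA selection or quality in these values was not tested. In CK the mitochondrial median was 0.78.

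Wall genes were higher at about the share of all genes, and flavonoid genes above it. Of 27 expansins, xyloglucan endotransglucosylases (XTHs), and cellulose synthases of 28 that passed, 5 were higher and 0 lower, with 3 DEGs. This share, 18.5%, is close to the 15.8% of all genes that were higher. XTH24 had 418, 313, and 359 TPM at 28°C, against 121, 208, and 177 TPM at 25°C (log2 fold change 1.13 ± 0.19, adjusted p = 0.000926, and log2 fold change 0.91 without Si 25°C replicate 1). XTH18, XTR6 (XTH23), and XTH19 had log2 fold changes of 1.46 ± 0.26, 1.15 ± 0.22, and 0.96 ± 0.24. Of these, the call of XTH19 was lost without Si 25°C replicate 1 (adjusted p = 0.0593). GASA1, a small cysteine-rich peptide gene named after its values were seen, had 2252, 1038, and 1237 TPM at 28°C, against 457, 723, and 515 TPM at 25°C (log2 fold change 1.36 ± 0.26, adjusted p = 0.00222). Of 13 flavonoid genes of 21 that passed, 5 (38.5%) were higher and 0 lower. MYB90, an activator of anthocyanin synthesis, had 72.6, 47.8, and 58.1 TPM at 28°C, against 23.3, 25.4, and 16.8 TPM at 25°C (log2 fold change 1.41 ± 0.23, adjusted p = 0.000756). Chalcone synthase TT4 had 14.9, 18.8, and 13.4 TPM at 28°C, against 7.36, 5.1, and 8.06 TPM at 25°C (log2 fold change 1.1 ± 0.16, adjusted p = 0.000371, and log2 fold change 0.93 to 0.97 without Si 25°C replicate 2 or Si 28°C replicate 2, and 0.97 with median-of-ratios scaling). PAL1 and C4H, the entry enzymes, had log2 fold changes of 0.90 ± 0.19 and 0.75 ± 0.10.

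DNA replication genes were close to level. Of 28 genes of 30 that passed the filter, MCM5, a subunit of the replicative helicase, was higher with a log2 fold change of 0.29 ± 0.08 (adjusted p = 0.0175), 0 were lower, and the median was 0.14. The call of MCM5 ended with median-of-ratios scaling (adjusted p = 0.164) and in 3 leave-outs (adjusted p = 0.055 to 0.068 without Si 25°C replicate 2 or Si 28°C replicate 2 or 3). MCM2 had 8.55, 9.39, and 8.2 TPM at 28°C, against 7.5, 6.96, and 9.03 TPM at 25°C (log2 fold change 0.14 ± 0.15, adjusted p = 0.531), MCM4 8.22, 8.6, and 8.43 TPM at 28°C, against 7.39, 6.67, and 6.93 TPM at 25°C (log2 fold change 0.24 ± 0.11, adjusted p = 0.126), and ORC2 1.84, 2.04, and 2.0 TPM at 28°C, against 1.94, 2.33, and 1.9 TPM at 25°C (log2 fold change -0.04 ± 0.14, adjusted p = 0.858). None of these 3 passed the test. Of 15 mitotic cyclins and kinases of 16 that passed, 0 were called by limma in either direction. UBQ5, the study's RT-qPCR reference, had 371, 401, and 374 TPM at 28°C, against 424, 399, and 424 TPM at 25°C (log2 fold change -0.12 ± 0.07, adjusted p = 0.197), and it was lower with median-of-ratios scaling (adjusted p = 0.0179).

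**Figure D3:**
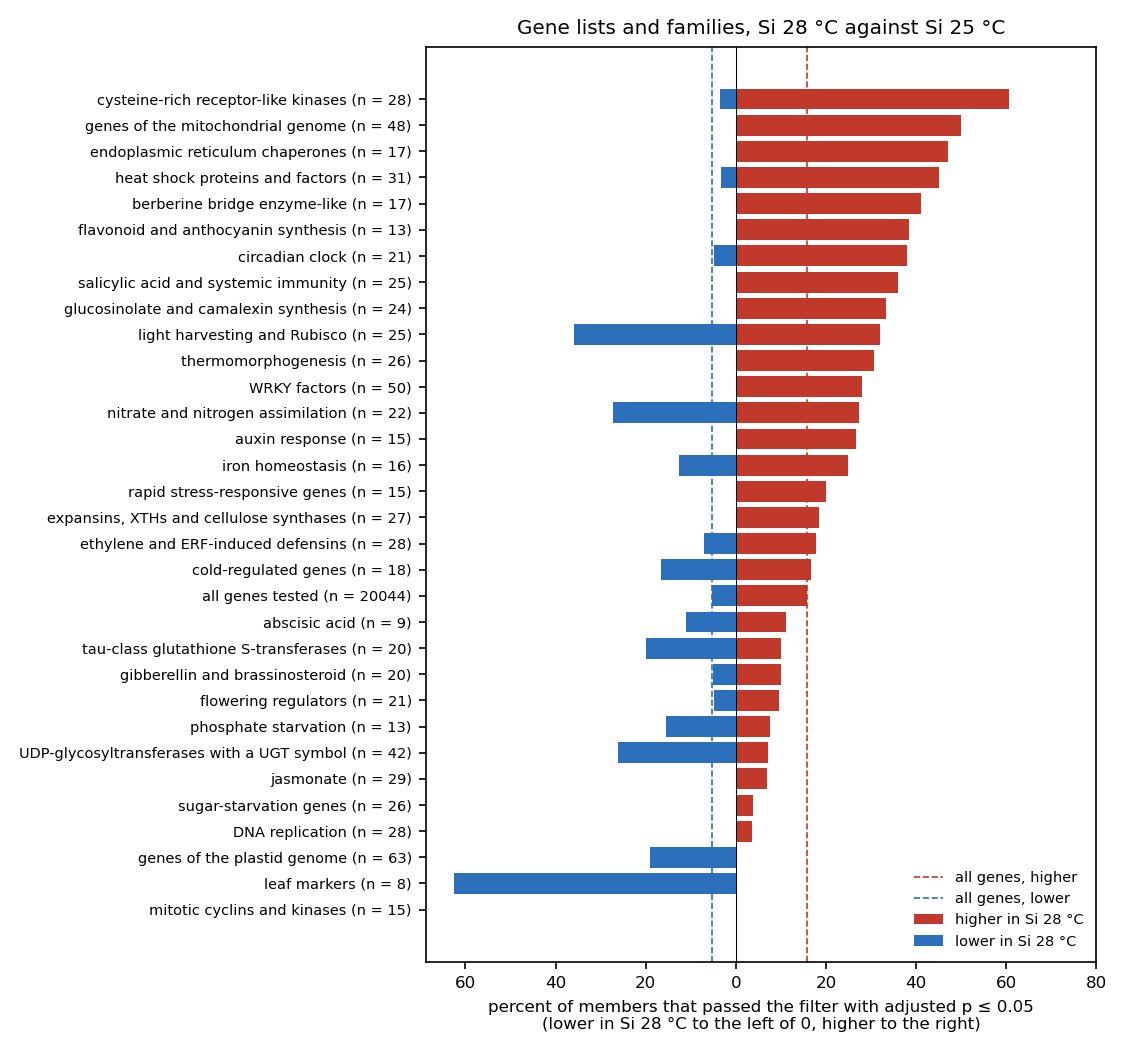
Percent of the members of each list or family that passed the filter (n in brackets) with an adjusted p of at most 0.05, higher in Si 28°C to the right of 0 (red) and lower to the left (blue), with dashed lines at the share of all genes (15.8% and 5.27%). Cysteine-rich receptor-like kinases, mitochondrial genes, and chaperones lie far to the right, and leaf markers to the left.

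The same step was then read in CK plants, to ask where colonized plants differed. In CK 281 genes (1.4%) were upregulated and 56 (0.279%) downregulated at 28°C, and 44 of the 282 upregulated and 6 of the 42 downregulated DEGs of Si were DEGs in the same direction in CK. The difference between the Si and the CK change passed an adjusted p of 0.05 for 655 genes in the positive direction (3.27%) and 1067 in the negative direction (5.32%). Among the 282 upregulated DEGs of Si it was positive for 122 and negative for 1, and among the 42 downregulated DEGs it was negative for 14 and positive for 0, where the choice of DEGs by the Si change favours these directions. The 1722 differences became 861 without Si 25°C replicate 1, and 1029 and 1035 without Si 28°C replicates 3 and 1, 1055 and 1075 without CK 25°C replicates 1 and 2, and 1079 without CK 28°C replicate 2. Several of the largest rises were also found in CK, with log2 fold changes there of 1.87 for HSP17.4, 1.88 for AT5G48570, 2.28 for GRP5, and 2.33 for AT4G23680. Their differences between Si and CK were 0.19 ± 0.44, adjusted p = 0.839 for HSP17.4, -0.55 ± 0.27, adjusted p = 0.236 for AT5G48570, -0.08 ± 0.32, adjusted p = 0.912 for GRP5, and 0.01 ± 0.26, adjusted p = 0.99 for AT4G23680, and none passed the test.

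Some named genes of defense, nitrate transport, and detoxification differed, and others did not. Limma's difference between Si and CK did not pass for UGT73B4, UGT74E2, and OPR2 (adjusted p = 0.0572, 0.0993, and 0.172). Nor did it pass for WRKY53, WRKY46, and AT5G10760 (adjusted p = 0.109, 0.12, and 0.124). NRT2.5 had a log2 fold change of -0.01 in CK (difference 2.59 ± 0.21, adjusted p = 4.37e-05), with 0.33, 0.33, and 0.39 TPM in CK at 28°C, against 0.45, 0.32, and 0.31 TPM in CK at 25°C. AT2G43620 had 0.10 (difference 2.62 ± 0.54, adjusted p = 0.00952) and AT4G30170 0.19 (difference 2.16 ± 0.32, adjusted p = 0.00178). FRK1 had -1.11 in CK (difference 2.55 ± 0.45, adjusted p = 0.00443), with 3.56, 2.81, and 2.63 TPM in CK at 28°C, against 6.21, 9.17, and 7.65 TPM in CK at 25°C, so that the sign was opposite to that in Si. The largest positive differences were those of AT1G26390, a berberine bridge enzyme-like gene, AT4G12500, a lipid transfer protein, and AT5G48430, an aspartyl protease (3.16 ± 0.88, adjusted p = 0.0378, 3.02 ± 0.60, adjusted p = 0.00814, and 2.75 ± 0.67, adjusted p = 0.0213). In Si AT4G12500 had 29.3, 22.3, and 30.2 TPM at 28°C, against 8.81, 14.8, and 6.95 TPM at 25°C. AT1G26390 and AT5G48430 did not pass in Si itself (adjusted p = 0.154 and 0.11). The difference of AT1G26390 was lost in 9 leave-outs (adjusted p = 0.0516 to 0.0957 without CK 25°C replicate 1, 2, or 3 or CK 28°C replicate 1, 2, or 3 or Si 25°C replicate 1 or Si 28°C replicate 1 or 3) and that of AT5G48430 in 2 (adjusted p = 0.0562 to 0.0574 without Si 25°C replicate 1 or Si 28°C replicate 3). The largest negative differences were those of the leucine-rich repeat gene AT4G16880, the RNA gene AT5G02105, and the lipid transfer gene AT4G22485 (-2.34 ± 0.45, adjusted p = 0.00708, -1.95 ± 0.48, adjusted p = 0.0212, and -1.82 ± 0.33, adjusted p = 0.00507). That of AT5G02105 was lost in 3 leave-outs (adjusted p = 0.0505 to 0.0617 without CK 28°C replicate 2 or 3 or Si 25°C replicate 1). AT4G22485 fell in Si, with 52.7, 86.7, and 91.8 TPM at 28°C, against 137, 129, and 156 TPM at 25°C (log2 fold change -0.90 ± 0.23, adjusted p = 0.0143). GSTU24, GSTU1, and CYP81D11 fell by more in Si than in CK, where their log2 fold changes were -0.74, -0.46, and -0.54 (differences -1.74 ± 0.24, adjusted p = 0.0012, -1.52 ± 0.44, adjusted p = 0.0459, and -1.53 ± 0.38, adjusted p = 0.022).

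Over all genes the difference was positive for 3.27% and negative for 5.32%. By list, 5 of 25 salicylic acid and systemic immunity genes and 8 of 28 cysteine-rich receptor-like kinases had a positive difference and 0 a negative one. Of 17 berberine bridge enzyme-like genes 7 had a positive and 1 a negative difference, and of 50 WRKY genes 6 and 0. Tau-class glutathione S-transferases had 1 positive and 5 negative of 20, UGT genes 3 and 3 of 42, nitrogen genes 3 and 4 of 22, and iron genes 4 and 3 of 16. Of the 26 sugar-starvation genes 8 had a positive difference, with a median of 0.11 in Si and -0.43 in CK. Negative differences were found for 7 of 27 wall genes, 6 of 17 chaperones of the endoplasmic reticulum, and 5 of 28 DNA replication genes, whose median was 0.14 in Si and 0.49 in CK. PIF4 rose by more in Si (difference 0.53 ± 0.13, adjusted p = 0.0247).

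**Figure D4:**
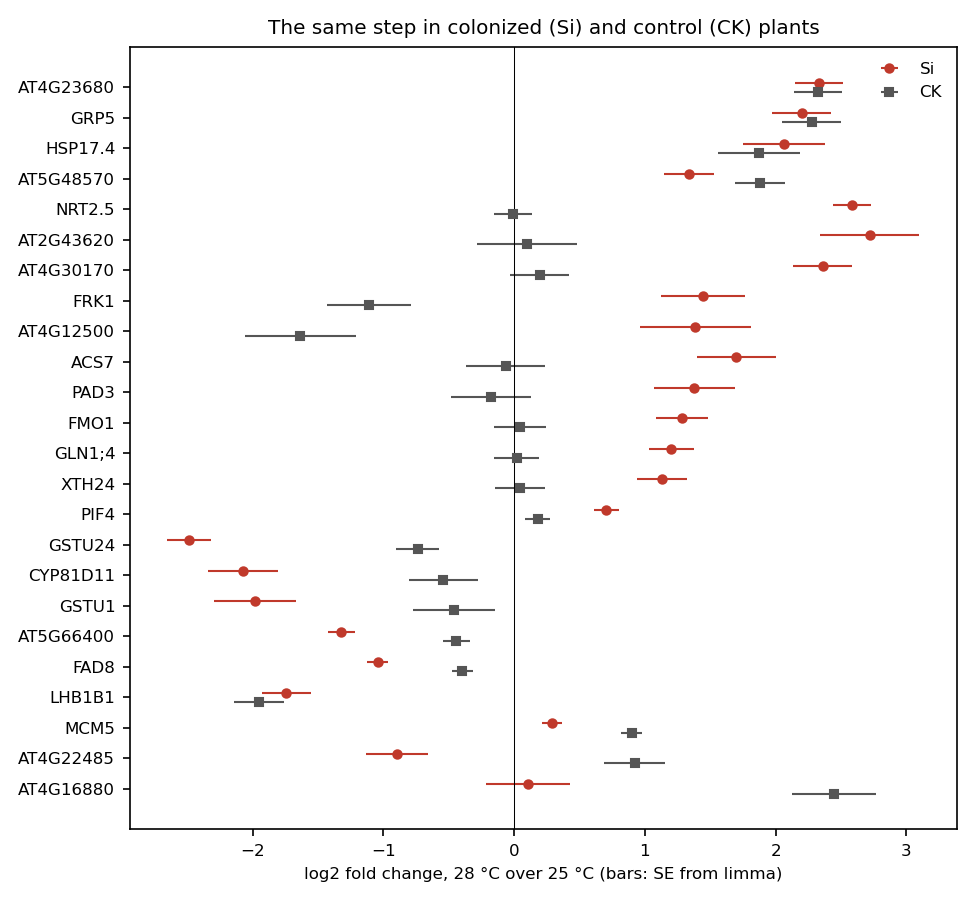
Log2 fold change of 28°C over 25°C in Si (red circles) and CK (grey squares) for 24 named genes, with bars for the SE from limma. The upper 4 genes rise in both kinds of plant, NRT2.5 to PIF4 rise by more in Si, and GSTU24 to FAD8 fall by more in Si.

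Last, the step was set beside the lower one, 25°C against 22°C in Si, with which it shares the 25°C samples. On the adjusted p alone 16.6% of genes were higher and 7.06% lower at 25°C than at 22°C. Of the 282 genes upregulated at 28°C 71 had already been higher at 25°C than at 22°C and 19 lower, and of the 42 downregulated 11 had been lower and 4 higher. The 2 steps differed for 895 genes (4.47%) on the adjusted p, a count that was 118, 207, and 555 without Si 25°C replicates 1, 2, and 3, and 458 without Si 28°C replicate 3, so it rests on those libraries. At 22, 25, and 28°C MYB90 averaged 4.54, 21.8, and 59.5 TPM and passed the test in both steps (lower step 2.06 on the log2 scale). LHB1B1 averaged 1014, 227, and 65.9 TPM and fell in both steps (lower step -2.17). In the lower step FRK1 had a log2 fold change of 0.09 and GSTU24 of -0.22, neither of which passed the test (adjusted p = 0.875 and 0.372). PIF4 was lowest at 25°C, with 25, 22.5, and 24.1 TPM, against 33.1, 35.5, and 26.53 TPM at 22°C (log2 fold change -0.39, adjusted p = 0.00884), and its samples at 28°C were above those at 25°C.

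**Figure D5:**
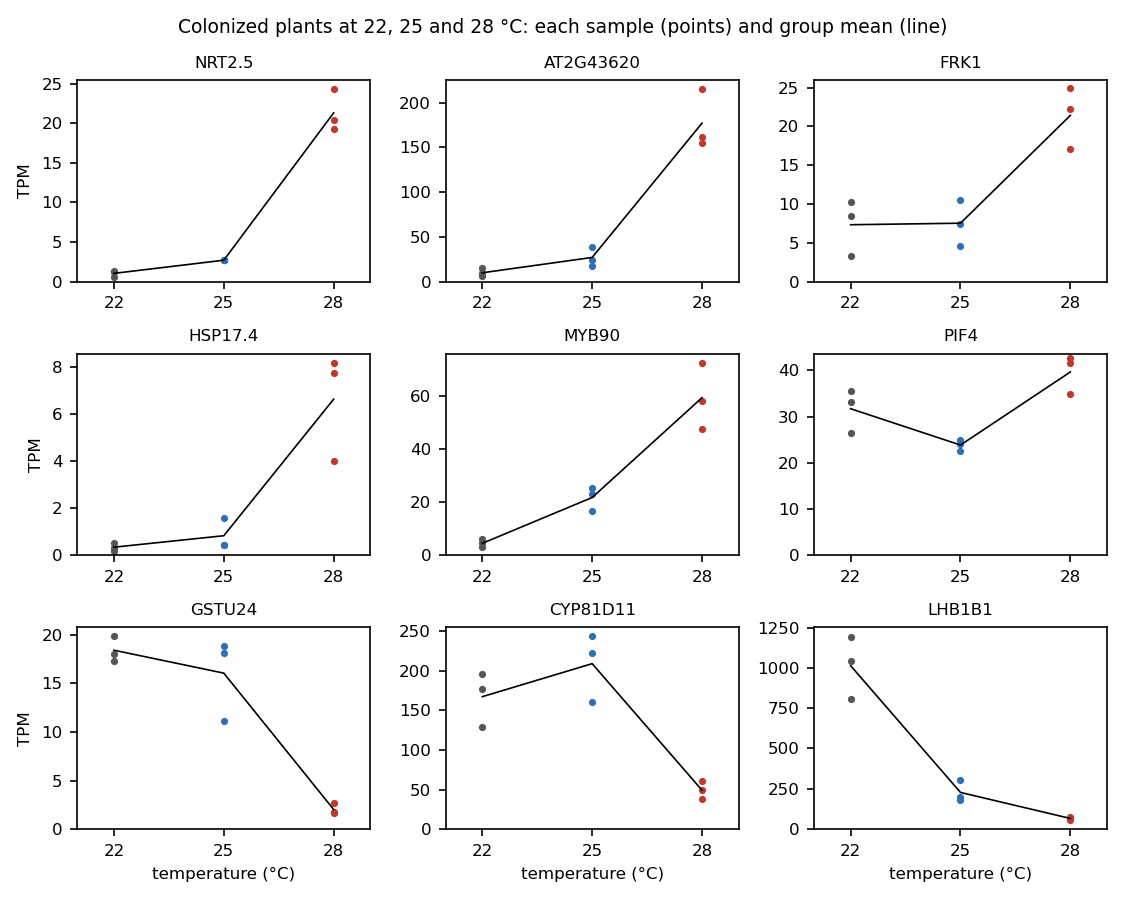
TPM of 9 genes in each of 3 Si samples at 22, 25, and 28°C (points) with a line through the group means. NRT2.5, AT2G43620, FRK1, and HSP17.4 have their highest values at 28°C, MYB90 rises and LHB1B1 falls over both steps, GSTU24 and CYP81D11 are lowest at 28°C, and PIF4 is lowest at 25°C.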

How the data were processed

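Aboveground parts of Si and CK plants at 28, 25, and 22°C were sequenced as 18 RNA-seq libraries, grouped by their labels. The authors mapped trimmed reads to TAIR10 and deposited a table of TPM for 33039 genes. The study's methods name RSEM for the TPM, whereas the labels name HISAT2 and StringTie, and for versions and the use of strand in counting nothing is given in the sources used here. Each TPM column summed to between 999999 and 1000001, so depth is unknown and the study's DESeq2 could not be run. Newly assembled genes, 206 IDs, kept no name, and names and products came from RefSeq (TAIR10.1).

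Genes that reached 1 TPM in 3 or more of the 18 samples were tested with limma 3.58.1 (R 4.3.3, empirical Bayes with trend, two-sided) on log2(TPM + 1), with 6 group means in one fit and Benjamini-Hochberg adjustment over 20044 genes. The genes at 28°C in Si were read against 25°C in Si, and the same contrast in CK, the difference of both, and 25°C against 22°C in Si came from the same fit. Counts for lists are out of the members that passed the filter, and a member is higher or lower on the adjusted p alone. The members and lists were chosen with earlier results of these data known. Named genes are the 10 largest rises and falls among DEGs with no overlap between groups, at least 5 TPM in the higher group, a transcript of at least 200 bases, and values above 0 in both groups, up to 4 genes a list by absolute change, the 3 largest differences between Si and CK in each direction, and genes the study names. Others are said to be chosen after their values were seen. Alternatives were pseudocounts, filters, scalings, a replicate block, fits of the compared groups alone, and leaving out single libraries. The test was tried on simulated data with known changes.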

Additional observations from a re-analysis of the deposited data

Results flagged for a closer look

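For 37 of the named genes the change at 28°C against 25°C differed between Si and CK by limma's test of the difference itself (adjusted p of 4.37e-05 to 0.0459), and each difference is given here as the Si log2 fold change minus the CK log2 fold change. Among the largest rises of Si it was 1.395 for AT1G80130, 2.621 for AT2G43620, 2.593 for NRT2.5, 1.946 for AT2G30766, and 2.165 for AT4G30170. For defense and ethylene genes it was 2.552 for FRK1, 1.246 for FMO1, 0.7513 for EDS16, 1.554 for PAD3, 1.764 for ACS7, 3.156 for AT1G26390, 3.022 for AT4G12500, and 2.752 for AT5G48430. For genes of detoxification it was -1.744 for GSTU24, -1.522 for GSTU1, and -1.531 for CYP81D11. Among nutrient and sugar genes it was 1.185 for GLN1;4, 1.052 for ERD5, 0.4 for FRO3, 0.5072 for BTS, -0.6722 for SQD2, and -0.5422 for SQD1. Among genes of growth, light, and the clock it was 0.5255 for PIF4, 0.5283 for WES1, 0.8233 for AT3G54500, 1.086 for XTH24, 0.8775 for TT4, 0.6337 for C4H, and 0.9158 for ELIP1. For the remaining genes, whose change was lower in Si than in CK, it was -0.6456 for FAD8, -0.8797 for AT5G66400, -0.6082 for MCM5, -0.541 for CA1, -0.426 for UBQ5, -2.338 for AT4G16880, -1.954 for AT5G02105, and -1.816 for AT4G22485. UBQ5, the study's RT-qPCR reference gene, is among them, with 220.0, 225, and 245 TPM in CK at 28°C, against 182, 175, and 203 TPM in CK at 25°C. Most of these genes were named for a large change in Si, which is itself a part of the difference, and some for the difference. Their number and adjusted p are thus no measure of how often the plants differed. With 3 samples in each group no sample was set against its group for standing apart.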

How the results depend on the processing

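For Si 28C against 25C the 324 DEGs (282 higher, 42 lower) became 433 with a pseudocount of 0.1, 234 with median-of-ratios scaling, 238 with quantile normalization (180 higher), and 271 to 370 with a library left out, and with no threshold on the fold change 4232 genes passed (3176 higher, 1056 lower). For CK 28C against 25C the 337 DEGs became 802 with a pseudocount of 0.1, 519 with one of 0.5, 224 with quantile normalization, and 5690 with no threshold on the fold change. For Si 25C against 22C the 433 DEGs became 650 with a pseudocount of 0.1 and 4748 with no threshold. The 1722 differences between Si and CK became 861 to 1585 with a library left out. The 895 genes whose 2 steps differed became 217 when only the groups compared were fitted and 118 to 1181 with a library left out.

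PHYB and MCM2, which did not pass the test, changed sign under quantile normalization (-0.15 and -0.041), PHYB also with median-of-ratios scaling (-0.11), and with a library left out PHYB took values of -0.022 to 0.023 and ORC2 of -0.081 to 0.019. ELF3 passed as lower under both scalings (-0.21 and -0.17) and UBQ5 with median-of-ratios scaling (-0.24). Of all values of named genes over these settings, 1455 stayed on their side of the threshold and 156, in 44 genes, fell short of it. Besides the calls given with their genes, quantile normalization ended those of ATERDJ3A and RVE8 and took BHLH100 to a log2 fold change of 0.88, and a pseudocount of 0.1 ended those of PEPC1 and PAD3. The cause was not tested. Whether replicate numbers pair the samples was not settled. Same-numbered deviations of Si at 28°C and 25°C correlated at 0.13, -0.05, and 0.18, and other pairs of groups were not compared. With a replicate block 329 DEGs were called in place of 324. The differences between Si and CK became 1967 in place of 1722, and the second differences 1358 in place of 895. Without read counts, the sampling error of genes near 1 TPM cannot be given.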
